A study of Homo sapiens with 24 samples.

Results

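Mitochondrial ribosomal protein genes encode the proteins of the ribosome that works inside mitochondria. They were taken here as the genes of the deposited count table whose symbol is MRPL or MRPS followed by a number, with or without a closing A, B or C, and which had at least 10 raw counts summed over all 24 libraries. This gave 77 of the 19702 genes in the table, 48 with MRPL symbols for the large subunit and 29 with MRPS symbols for the small one. A further gene with such a symbol, MRPL53, had 0 counts in every library and lies just outside, while MRPL38, with 274 counts in all, is the lowest member inside and MRPS24, with 1161, the next. All 77 passed the filter on low counts in both lines, so every statement on the set covers every member.

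The libraries came from the established human lung adenocarcinoma lines PC9 and H1975, both with a mutated EGFR receptor gene. For 24 h each line was left as control or received almonertinib (which binds the mutated EGFR kinase irreversibly), paclitaxel (which freezes microtubules and is widely used in chemotherapy) or the combination of both. Almonertinib was given at 2 nM to PC9 and 1 nM to H1975, paclitaxel at 0.3 nM to PC9 and 1 nM to H1975, and the labels give no separate doses for the combination, so a difference between the lines cannot be told apart from a difference in dose. Each of the 8 groups had 3 libraries. Each group comes from 1 cell line, and the labels do not say whether the 3 repeats were separate cultures, so the p-values rest on a spread between libraries that may be only technical.

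The mitochondrial ribosome translates only the few messenger RNAs that mitochondrial DNA encodes, all of them for core parts of the respiratory chain and ATP synthase. Its ribosomal RNA comes from mitochondrial DNA, but each of its proteins is encoded in the nucleus, made in the cytosol and imported, so the MRPL and MRPS genes are transcribed and scattered over the genome like any other nuclear genes. The small subunit reads the messenger, and the large subunit joins the amino acids. Promoters of nuclear genes for mitochondrial proteins are known for binding sites of NRF1, of the ETS factor GABP and of YY1. Symbols do not follow structure everywhere: the products of MRPS30 and MRPS18A sit in the large subunit of the human particle, and that of MRPS36 is now counted as a subunit of the α-ketoglutarate dehydrogenase complex.

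Promoter windows of 300 bases, 250 before and 50 after the start of each gene, were available for 68 of the 77 members from RefSeq on GRCh38.p14. They were searched on both strands for 4 short motifs: GCGCNNGCGC for NRF1, CCGGAAG for ETS factors such as GABP, AAGATGG for YY1, and the E-box CACGTG. An ETS match can share its last 3 letters, AAG, with a YY1 match. The ETS letters stood in 41.2% of the members' windows, against 17.5% of the 11919 windows of genes with at least 10 counts in this table and 10.7% of all 27305 windows. The YY1 letters stood in 33.8% of the members' windows, against 7.09% and 6.06%. For NRF1 the shares were 13.2%, 14.4% and 8.78%, and for the E-box 8.82%, 9.65% and 7.43%. A match describes the letters of a window and is not shown to be a binding site.

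Stretches of 100 bases just before the start are printed for members whose stretch holds none of an annotated exon and that either carry a motif match or rose under paclitaxel in PC9, since they show what such stretches look like with and without a match in the printed bases. Capitals mark the ETS letters. MRPL58, whose product releases stalled peptides, lies at chr17:75012570-75012669 on the plus strand, MRPS31 at chr13:40771191-40771290 on the minus strand and MRPS18A at chr6:43687792-43687891 on the minus strand. MRPL19 (chr2:75646683-75646782, plus strand) and MRPL50 (chr9:101398619-101398718, minus strand) have none of the 4 motifs in their printed stretch, although the full window of MRPL50 holds the YY1 letters.
MRPL58: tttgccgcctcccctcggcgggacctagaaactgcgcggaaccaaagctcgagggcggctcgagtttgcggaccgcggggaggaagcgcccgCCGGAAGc
MRPS31: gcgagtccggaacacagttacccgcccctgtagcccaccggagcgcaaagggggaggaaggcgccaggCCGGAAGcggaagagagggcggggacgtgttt
MRPS18A: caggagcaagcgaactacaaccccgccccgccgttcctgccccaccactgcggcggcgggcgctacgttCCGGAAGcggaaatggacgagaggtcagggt
MRPL19: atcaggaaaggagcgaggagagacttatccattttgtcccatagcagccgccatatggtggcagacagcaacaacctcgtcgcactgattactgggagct
MRPL50: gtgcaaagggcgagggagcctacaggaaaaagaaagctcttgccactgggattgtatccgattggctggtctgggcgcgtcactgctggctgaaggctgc

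Library totals ran from 14232299 to 24245314 counts. Levels are given as CPM (a gene's counts per library total, scaled with TMM factors and put on the usual common base; for the markers that follow, without TMM factors). Of 9 epithelial and lung adenocarcinoma markers, 7 were over 1 CPM in every PC9 library and 8 in every H1975 library. The 11 markers of blood, endothelium and fibroblasts together summed to 20.5 to 36.1 CPM in PC9 and 9.67 to 18.6 CPM in H1975. NKX2-1, which defines much of lung adenocarcinoma, was at 0.147 to 2.06 CPM in PC9 and 30.3 to 87.2 CPM in H1975. Within a group, 4 libraries stood apart from their 2 partners in how their deviation from the mean of all libraries tracked the GC content of the genes: H1975 almonertinib 1, H1975 control 3, H1975 paclitaxel 1 and PC9 almonertinib 3. For H1975 almonertinib 1 the Spearman correlation of that deviation with GC was 0.71 over genes, against -0.55 and -0.40 in the other repeats of the group. The counts that rest on these libraries are given with all libraries and, for H1975, for comparisons with PC9 almonertinib and for the differences between lines, also without them, which leaves 2 libraries in each of those groups. This alternative was chosen after seeing the data.

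Levels of the members spanned a wide range. Mean CPM per kilobase of transcript over the 24 libraries had a median of 55.3 and ran from 0.312 for MRPL38 to 401 for MRPL49, with MRPL11, a protein at the base of the stalk where translation factors bind, at 386 and MRPL28 at 305. The lowest after MRPL38 were MRPL1 at 2.47 and MRPL50 at 3.36. Exons of 40 members share bases with another annotated gene, and for 13 the shared part is at least 20%: the strand counted is not given, so reads of such members may have been left out as ambiguous or may include the partner. MRPL12 shares 68.2% of its exon bases and MRPL38 41.1%, so their levels are uncertain.

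Summed over all members, the genes gave 6530 ± 226 CPM (SD, n = 3) in PC9 control, 5847 ± 860 under almonertinib, 5138 ± 121 under paclitaxel and 5034 ± 219 under the combination. The paclitaxel libraries (5033 to 5270 CPM) and combination libraries (4809 to 5247 CPM) all lay below the lowest PC9 control (6273 CPM). The almonertinib libraries had 5141, 5596 and 6805 CPM. The highest of them, almonertinib 3, which stood apart on GC, exceeded every control on this TMM scale. In H1975 the sum was 7807 ± 1313 CPM in control, 7075 ± 1342 under almonertinib, 7905 ± 1731 under paclitaxel and 6309 ± 86.9 under the combination. The H1975 libraries that stood apart moved these TMM-scaled sums. H1975 control 3 gave 6294 CPM beside 8659 and 8467. H1975 almonertinib 1 gave 8551 beside 5929 and 6744, and H1975 paclitaxel 1 gave 5921 beside 8688 and 9106.

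**Figure D1:**
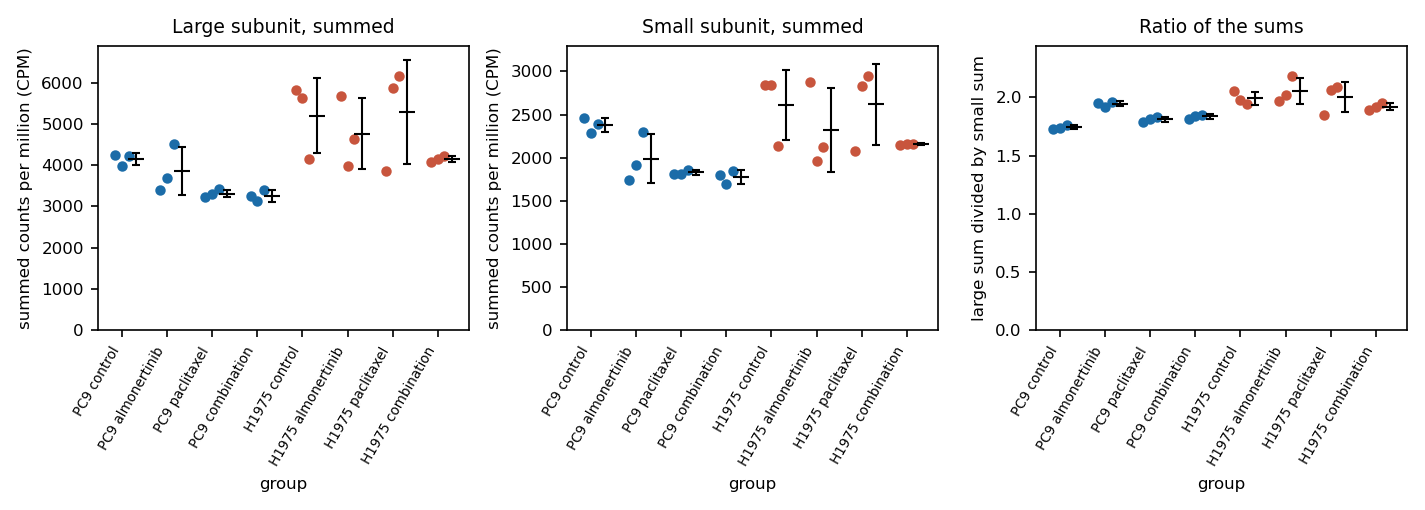
Summed CPM of the 48 large subunit genes (left) and the 29 small subunit genes (middle), and the ratio of the sums (right), for each library (points; blue PC9, red H1975) in the 8 groups, with the mean and SD of 3 libraries in black. PC9 paclitaxel and combination lie below PC9 control in both subunits, and the PC9 ratio is lowest in control.

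In bulk RNA, fewer cells making a transcript and less transcript per cell cannot be told apart. The sums are CPM scaled with TMM factors, so they are not plain shares of all counted RNA. They may still move with other abundant transcripts. The factors were lower in every PC9 control (at most 0.9404) than in every PC9 paclitaxel library (at least 1.069) or PC9 combination library. The scaling therefore widened the fall of the sums from control to these groups. PC9 almonertinib 3 had the lowest factor in PC9 (0.856), so its sum was raised most. In H1975 the factors were 0.840, 1.143 and 1.119 in almonertinib 1, 2 and 3. They were 0.907, 0.918 and 1.100 in the controls and 1.119, 0.983 and 0.959 under paclitaxel, in the same order. The scaling thus raised the sum of H1975 almonertinib 1 against its partners and lowered those of control 3 and paclitaxel 1. The sums were not compared without these factors. The gaps within these H1975 groups and the place of PC9 almonertinib 3 above the controls are shown on the TMM scale only. Cytosolic ribosomal protein genes summed to 156643 ± 6312 CPM on the same scale in PC9 control and 113236 ± 6318 under paclitaxel (n = 3 each). Their part in the result was not tested.

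Under the combination, genes of both subunits were lower in PC9. Of the 77 members, 46 fell and 0 rose (edgeR quasi-likelihood test, adjusted p under 0.05), while 26.0% of all genes tested were called lower and 24.7% higher. The median log2 fold change was -0.44, against 0.00 over all 12796 genes tested, and 73 of the 77 values were negative. Among large subunit genes 27 of 48 fell, with a median of -0.37, and among small subunit genes 19 of 29 fell, with a median of -0.51.

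**Figure D2:**
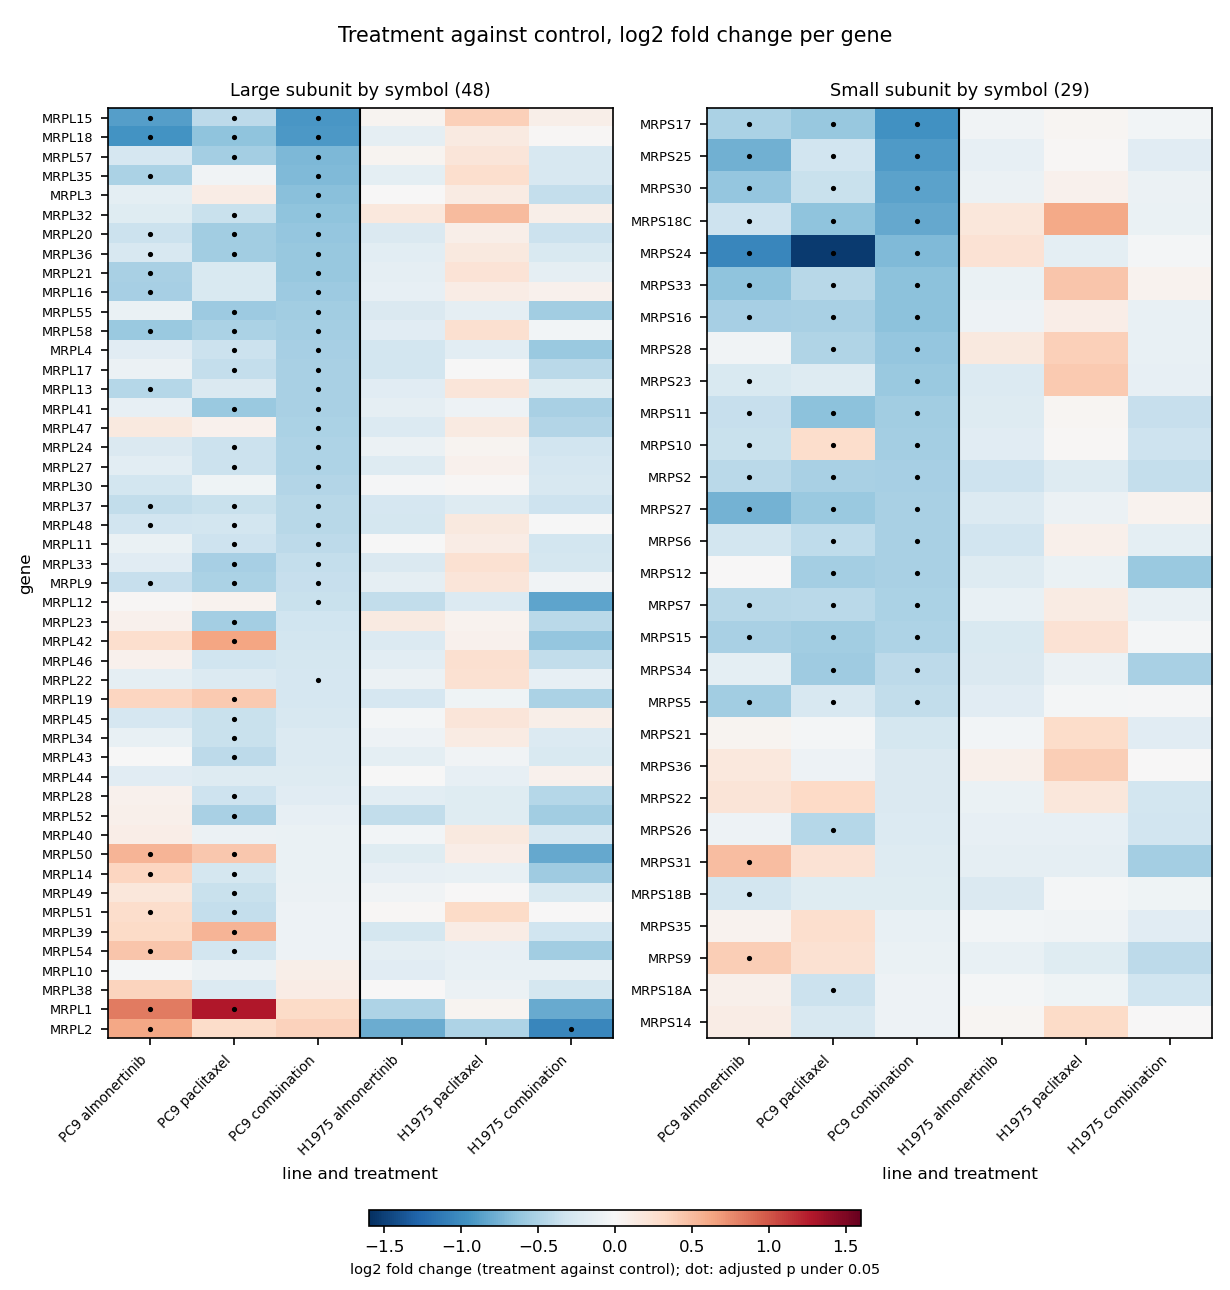
Log2 fold change of each gene (rows, ordered within a subunit by PC9 combination) in each treatment against the control of the same line (columns); blue is lower, red is higher, and a dot marks an edgeR adjusted p under 0.05. PC9 combination holds 46 dots, all on negative values, and H1975 holds 1.

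Large subunit members fell by up to 1.92-fold under the combination in PC9. MRPL15, a core protein of the large subunit, had 37.2, 32.6 and 33.6 CPM in the PC9 control libraries and 17.5, 18.9 and 17.8 CPM under the combination. These values do not overlap, and MRPL15 fell by 0.94 on the log2 scale (SE 0.11, adjusted p = 2.7e-06). MRPL18, a protein of the central protuberance, had 108, 91.7 and 95.9 CPM in control and 54.9, 45.7 and 57.1 CPM under the combination. Its log2 fold change was -0.92 (SE 0.11, adjusted p = 2.9e-06), again with no overlap. MRPL57, a subunit found only in mitochondrial ribosomes, fell (-0.72), as did MRPL35 (-0.71) and MRPL3 (-0.66), a protein that reaches towards the peptidyl transferase centre.

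Small subunit symbols gave falls of the same order. MRPS17, a core protein that binds ribosomal RNA, had 26.2, 23.2 and 23.5 CPM in control and 14.7, 9.95 and 12.8 CPM under the combination, a log2 fold change of -0.97 (SE 0.15, adjusted p = 5.6e-05). MRPS25, a mitochondria-specific subunit, had 53.7, 40.0 and 44.9 CPM in control and 25.9, 23.7 and 24.5 CPM under the combination (log2 fold change -0.91, SE 0.11). MRPS30 had 46.1, 42.6 and 40.9 CPM in control and 23.2, 24.6 and 24.1 CPM under the combination (log2 fold change -0.86, SE 0.09, adjusted p = 1.0e-06). In each of the 3 genes every combination library lay below every control. MRPS18C, 1 of the 3 human relatives of a single bacterial protein, fell by 0.82 on the log2 scale, whereas its relatives MRPS18A (-0.08) and MRPS18B (-0.19) did not pass the test (adjusted p = 0.61 and 0.15). The gap between these relatives was not tested, and MRPS18A shares 47.0% and MRPS18C 40.2% of exon bases with a gene on the opposite strand.

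MRPS24, the counterpart of a bacterial protein at the messenger entry site, is a low-count member: 3.14, 3.11 and 4.11 CPM in PC9 control and 1.79, 2.02 and 2.52 CPM under the combination. It fell by 0.71 on the log2 scale (adjusted p = 0.017), but the call was lost without PC9 combination 1 (adjusted p = 0.073), combination 2 (0.058) or control 3 (0.079). It shares 23.2% of its exon bases with a readthrough transcript that joins URGCP to it. MRPL12, which forms the flexible stalk and has also been linked to mitochondrial transcription, fell by 0.36 (adjusted p = 0.022). MRPS36, the dehydrogenase subunit, did not pass the test (-0.24, adjusted p = 0.17).

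Under paclitaxel alone PC9 had 47 members lower (28.0% of all genes tested) and 6 higher (27.0%), below the background for the higher calls, with a median log2 fold change of -0.34 against -0.01 over all genes. In 1 fit of all 24 libraries 21 were lower and 3 higher (16.3% and 21.5% of all genes), with a median of -0.32. Large subunit genes gave 28 lower and 5 higher, and small subunit genes 19 lower and 1 higher. The members that fell most among large subunit symbols were MRPL18 (-0.65), MRPL41 (-0.59), MRPL55 (-0.58), MRPL36 (-0.56) and MRPL20 (-0.56), all with adjusted p of at most 8.0e-04. MRPL36 is a very short protein of the bacterial type. Among small subunit symbols MRPS11 fell by 0.66, MRPS18C by 0.64, MRPS17 by 0.60 and MRPS27, a pentatricopeptide repeat protein, by 0.59. MRPS24 had 1.48, 0.878 and 1.26 CPM under paclitaxel, all below the lowest control, and fell by 1.53 (SE 0.24, adjusted p = 1.1e-04).

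MRPL1, a protein of the mobile side stalk through which spent tRNA leaves, moved the other way. It had 2.41, 1.83 and 1.42 CPM in PC9 control and 5.13, 4.43 and 4.67 CPM under paclitaxel, with no overlap and a log2 fold change of 1.28 (SE 0.24, adjusted p = 3.8e-04). MRPL42 rose from 11.9, 12.1 and 9.98 CPM to 17.5, 19.6 and 16.5 CPM (log2 fold change 0.63, SE 0.14, adjusted p = 0.0011). MRPL39, which resembles a threonyl-tRNA synthetase, rose by 0.55, MRPL50 by 0.44, MRPL19 by 0.41 and MRPS10 by 0.29. For each of these last 4 the call was lost without at least 1 library: MRPL39 without paclitaxel 1 (adjusted p = 0.063), MRPL19 without control 2, control 3 or paclitaxel 1 (0.11, 0.11 and 0.078), MRPL50 without control 2, control 3, paclitaxel 1 or paclitaxel 2 (0.050 to 0.16) and MRPS10 without the same 4 libraries (0.085 to 0.20).

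GC content moved with the paclitaxel effect. Transcripts of MRPL1 and MRPL50 are 35.0% GC and that of MRPL42 36.5%, against a median of 51.2% over the members. The deviation of the PC9 paclitaxel libraries tracked GC over all genes with a Spearman correlation of -0.48 ± 0.09 (SD, n = 3), against 0.21 ± 0.11 in PC9 control. Across the 77 members, which share these libraries, the log2 fold change under paclitaxel had a Spearman correlation with GC of -0.42. After removal of a length and GC trend from each library, the count in PC9 paclitaxel was 46 lower and 4 higher (30.6% and 22.7% of all genes in that fit). The median was then -0.32. In that fit MRPL1 kept a higher value (0.55, adjusted p = 0.030), MRPL42 was at -0.04 (adjusted p = 0.72), MRPL39 at 0.11 (adjusted p = 0.61), MRPL50 at -0.41 (adjusted p = 0.044) and MRPS10 at -0.22 (adjusted p = 0.039), so MRPL42, MRPL50 and MRPS10 changed direction.

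Almonertinib alone gave a mixed picture in PC9. There were 28 members lower (27.8% of all genes tested) and 8 higher (28.9%), below the background for the higher calls and above it for the lower ones, with a median log2 fold change of -0.16 against 0.03 over all genes. Small subunit symbols gave 16 of 29 lower and 2 higher, and large ones 12 of 48 lower and 6 higher, a contrast that was not tested. Without PC9 almonertinib 3, which stood apart, 40 members were lower and 10 higher (30.4% and 32.4% of all genes in that fit) and the median was -0.27. Without almonertinib 1, 22 were lower and 9 higher and the median was -0.072. The share of all genes in that fit is not given here, so these 2 counts cannot be set against it.

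MRPL18 and MRPL15 had the lowest log2 fold changes of the large subunit here too. MRPL18 had 44.7, 54.6 and 52.6 CPM under almonertinib in PC9, all below the lowest control at 91.7 CPM, and fell by 0.96 on the log2 scale (SE 0.11, adjusted p = 1.3e-06). MRPL15 had 17.5, 20.7 and 17.5 CPM and fell by 0.89 (SE 0.11). The release factor MRPL58 fell by 0.59, MRPL16 by 0.53 and MRPL21 by 0.52. Among small subunit symbols MRPS24 fell by 1.04, MRPS25 by 0.76, MRPS27 by 0.75, MRPS33 by 0.64 and MRPS30 by 0.62, with adjusted p of 0.0013 or below. MRPS27 had 73.8, 72.5 and 73.7 CPM in control, 41.5, 48.3 and 40.2 under almonertinib, 50.3, 49.3 and 48.6 under paclitaxel and 57.8, 48.8 and 47.4 under the combination, so all 9 treated libraries lay below all controls.

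Of the members that rose under almonertinib, MRPL2, a protein of the peptidyl transferase centre, went from 3.19, 3.18 and 4.11 CPM to 5.32, 4.31 and 6.42 CPM (log2 fold change 0.62, SE 0.19, adjusted p = 0.012). MRPL54 rose by 0.44 (adjusted p = 0.0044) and MRPS9, a core protein of the small subunit, by 0.39 (adjusted p = 0.011). MRPL1 (0.83), MRPL50 (0.54), MRPS31 (0.50) and MRPL14 (0.34) also rose, each with a call that rests on single libraries. Without almonertinib 2 the adjusted p was 0.076 for MRPL1, 0.094 for MRPL50 and 0.056 for MRPS31, without control 3 it was 0.059 for MRPL50, and for MRPL14 it was 0.053 without almonertinib 3 and 0.068 without control 2. With the length and GC trend removed, MRPL1 (0.19), MRPS31 (0.06) and MRPL50 (-0.07) did not pass the test, while MRPL2 (0.68), MRPL54 (0.22), MRPS9 (0.35) and MRPL14 (0.48) did.

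**Figure D3:**
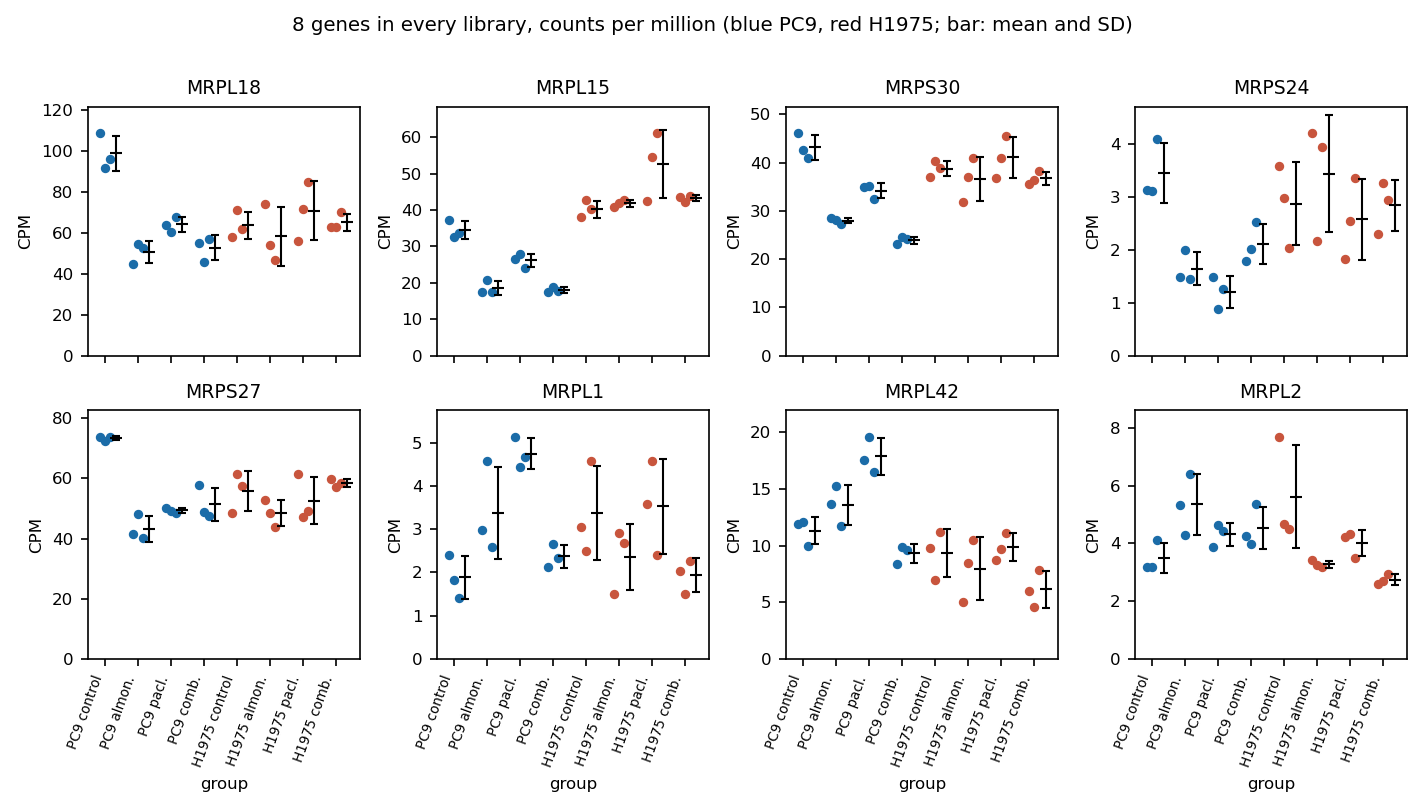
CPM of 8 genes in every library (points; blue PC9, red H1975), with the mean and SD of the 3 libraries of each group in black. MRPL18, MRPL15, MRPS30 and MRPS27 lie lower in every treated PC9 library than in every PC9 control, while the group means of MRPL1 and MRPL42 are highest in PC9 under paclitaxel.

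The combination was also set against each single drug in PC9. Against almonertinib, 24 members were lower (9.74% of all genes tested) and 0 higher (10.3%), with a median log2 difference of -0.24 against -0.04 over all genes. MRPS31 fell by 0.71, from 11.3, 12.3 and 9.92 CPM to 5.47, 8.35 and 6.78 CPM, MRPL47 by 0.65 and MRPL50 by 0.65. The count depended on the libraries and on the fit. Without combination 1, 8 members were lower (3.89% of all genes, 5.99% higher), and without combination 2, 11 were lower (6.91%, 8.91% higher), with 0 higher in both. In 1 fit of all 24 libraries 4 were lower (1.97%, 4.9% higher), and with only the 2 groups 4 were lower (3.93%, 6.64% higher), again with 0 higher. Without PC9 almonertinib 3, 26 were lower and 2 higher (17.1% and 15.3%) and the median was -0.14. MRPL50 lost its call without combination 1 (adjusted p = 0.056) or almonertinib 2 (0.069).

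Against paclitaxel, 23 members were lower (22.4%) and 4 higher (21.7%), and the median was -0.12 against -0.05. MRPL1 fell by 0.98 between paclitaxel and the combination, MRPL42 by 0.92 and MRPS10 by 0.83. MRPL42 had 8.38, 9.91 and 9.65 CPM under the combination, below every paclitaxel library (16.5 to 19.6 CPM) and every control (9.98 to 12.1 CPM). Higher in the combination were MRPS24 (0.83), MRPL52 (0.38) and MRPL51 (0.31), and each lost its call without single libraries: MRPS24 without combination 3 or paclitaxel 2 (adjusted p = 0.071 and 0.090), MRPL52 without the same 2 (0.072 and 0.10) and MRPL51 without combination 1, combination 3, paclitaxel 1 or paclitaxel 3 (0.051 to 0.091). With the length and GC trend removed the split was 20 lower and 8 higher (21.0% and 23.7% of all genes in that fit).

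The interaction of the drugs asks whether the log2 effect of the combination equals the sum of both single effects. In PC9, 13 members had a negative interaction (23.4% of all genes tested), meaning a combination below that sum, and 11 a positive one (22.1%), both below the background share. Positive interactions were counted in 8 of 29 small and 3 of 48 large subunit genes, negative ones in 5 and 8. MRPL1 (-1.81, SE 0.33), MRPL42 (-1.19) and MRPL50 (-1.09) led the negative side: both single drugs had given higher values, and the combination gave 0.31, -0.29 and -0.11 against control. MRPS24 (1.87, SE 0.34), MRPS27 (0.82) and MRPL18 (0.69) led the positive side, where both drugs had lowered the gene alone and the combination lowered it no further than the stronger of them. With the length and GC trend removed, 19 members were positive and 9 negative (23.8% and 21.3% of all genes in that fit). In that fit MRPL42 (-0.16) and MRPL50 (0.01) did not pass the test, MRPL1 was at -0.71 (adjusted p = 0.048), and MRPS24 (1.65), MRPS27 (1.71) and MRPL18 (0.71) kept their calls. Without PC9 almonertinib 3, 24 were positive and 12 negative (29.1% and 28.9%).

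The balance of the subunits shifted towards the large one in treated PC9 libraries. Within a library, the mean log2 level (log2 of CPM plus 0.5) of large minus small subunit genes was 0.01 to 0.02 in the PC9 controls, 0.15 to 0.21 under almonertinib, 0.10 to 0.14 under paclitaxel and 0.10 to 0.14 under the combination, with no overlap between control and any treatment. The ratio of the summed CPM went from 1.74 ± 0.02 (SD, n = 3) in control to 1.94 ± 0.02 under almonertinib, 1.81 ± 0.02 under paclitaxel and 1.84 ± 0.02 under the combination. With MRPS30 and MRPS18A counted as large and MRPS36 left out, the log2 difference was 0.05 to 0.07 in control and 0.14 to 0.26 over the treated PC9 libraries, again with no overlap. The difference of the subunits' median log2 fold changes in PC9 depended on the genes kept: with a stricter filter on low counts it went from 0.07 to 0.020 under paclitaxel and from 0.14 to 0.076 under the combination, and with the length and GC trend removed to 0.085 under the combination. In H1975 the order was not repeated: the log2 difference was 0.24 ± 0.05 in control, 0.19 ± 0.02 under almonertinib, 0.21 ± 0.08 under paclitaxel and 0.12 ± 0.03 under the combination.

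**Figure D4:**
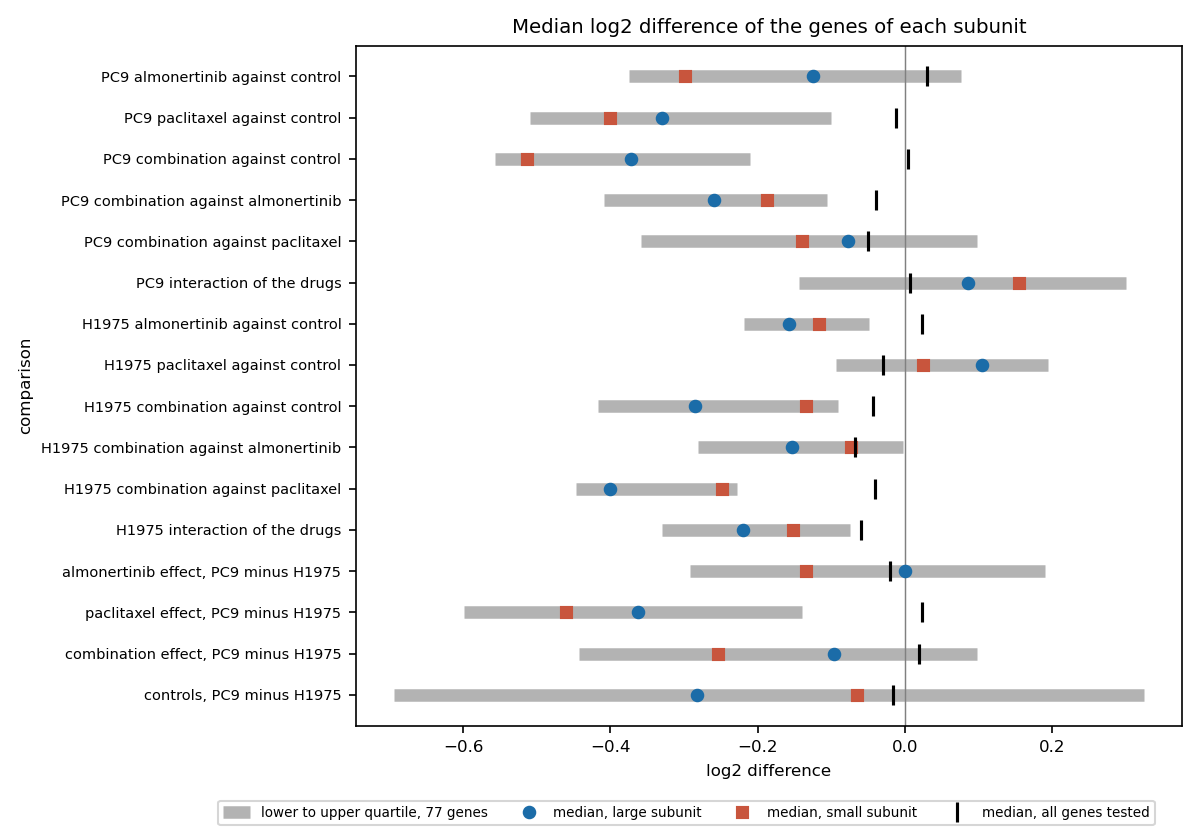
Median log2 difference of the large (blue circles) and small subunit genes (red squares) and of all genes tested (black bars) in each of the 16 comparisons, over the lower to upper quartile of the 77 genes (grey). All genes tested stay near 0, and the medians of both subunits reach -0.37 and -0.51 in PC9 combination against control.

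In H1975 with all libraries, almost no member passed the test, as few genes did at all. Almonertinib gave 0 members called (1.95% of all genes tested), with 1 at an unadjusted p under 0.05 and 0 by DESeq2. Paclitaxel gave 0 (0.64%), with 6 at an unadjusted p under 0.05 and 0 by DESeq2. The combination gave 1 (2.46%), with 16 at an unadjusted p under 0.05 and 2 by DESeq2. Against almonertinib the combination gave 0 (0.0%, with 2 unadjusted and 0 by DESeq2). Against paclitaxel it gave 0 (0.0%, with 22 unadjusted and 1 by DESeq2). The interaction gave 0 (0.672%, with 3 unadjusted and 0 by DESeq2). Of all 12345 genes tested, 1283, 1007 and 2300 had an unadjusted p under 0.05 for almonertinib, paclitaxel and the combination against control. DESeq2 called 353, 172 and 699 genes there. In the other 3 comparisons, in the same order, 1230, 1704 and 1267 genes were unadjusted and 41, 481 and 248 by DESeq2. The medians of the members were -0.15, 0.07 and -0.26 for almonertinib, paclitaxel and the combination against control. The paclitaxel median turned to -0.026 without H1975 paclitaxel 3 and was 0.21 without paclitaxel 1, and the almonertinib median was -0.095 without almonertinib 2 and -0.22 without almonertinib 1. Of the 77 values under the combination, 66 were negative.

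The member that fell in H1975 under the combination was MRPL2, from 7.69, 4.68 and 4.49 CPM to 2.58, 2.71 and 2.94 CPM. Its groups did not overlap, and its log2 fold change was -1.05 (SE 0.23, adjusted p = 0.027). The call was lost without any of the 3 combination libraries (adjusted p = 0.10 to 0.13), without control 1 (-0.76, adjusted p = 0.20) and without control 2 (adjusted p = 0.052). In PC9 the same gene had 4.26, 3.99 and 5.35 CPM under the combination, and its value against control was 0.37 (adjusted p = 0.12).

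Leaving out the libraries that stood apart raised the H1975 counts. Under almonertinib 35 members were then lower and 1 higher, where 21.6% and 23.9% of all genes were called. Under paclitaxel 1 was lower and 11 were higher (5.25% and 3.58%), led by MRPS18C (0.83). Under the combination 36 were lower and 0 higher (19.2% and 15.8%), led by MRPL2 (-1.19, adjusted p = 5.1e-04) and MRPL12 (-1.05, adjusted p = 3.0e-06), followed by MRPS12 (-0.78), a protein of the decoding centre, and MRPL4 (-0.78). MRPL12 had 45.1, 41.8 and 25.2 CPM in H1975 control, where control 3 is the low library, and 22.0, 20.8 and 20.3 CPM under the combination.

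The combination against almonertinib then gave 14 lower and 9 higher (19.2% and 15.1%), and the combination against paclitaxel 56 lower and 1 higher (16.3% and 16.7%) with a median of -0.50, led by MRPL50 (-1.01) and MRPL46 (-0.98). The interaction gave 19 negative and 5 positive members (16.5% and 16.4%). These counts rest on 2 libraries in each of H1975 control, almonertinib and paclitaxel and assume that the remaining libraries vary like the other groups. The part of GC content in them was not tested beyond the trend fit with all libraries, which called 1 member under almonertinib (6.13% of all genes), 0 under paclitaxel (2.54%) and 6 under the combination (11.3%).

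Whether a drug acted differently in the lines was tested as PC9 effect minus H1975 effect over all 24 libraries. For almonertinib 5 members were lower (11.0% of all genes tested) and 2 higher (5.53%), both below the background share. Without the 4 libraries that stood apart the counts were 6 lower and 15 higher (13.8% and 16.1%). The lower calls were then below the background share and the higher ones near it, and the median went from -0.041 to 0.074. For paclitaxel 14 were lower (7.21%) and 1 higher (9.9%), with a median of -0.40 against 0.02 over all genes. Its 15 calls became 32 without H1975 paclitaxel 1, 6 without H1975 paclitaxel 3 and 9 without PC9 paclitaxel 3. They became 8 without H1975 control 3, PC9 control 3 or PC9 paclitaxel 2. The share of all genes in these fits is not given here. Without the 4 libraries that stood apart 43 were lower and 3 higher (14.8% and 20.9%). For the combination 9 were lower (11.0%) and 1 higher (6.99%). Without the 4 libraries 16 were lower and 11 higher (19.0% and 19.6%), with the median moving from -0.14 to -0.033. In both fits the lower calls were near the background share and the higher ones below it. MRPL15 and MRPL18 were lower in all 3: MRPL15 by -0.95, -0.79 and -1.04 and MRPL18 by -0.83, -0.78 and -0.94 for almonertinib, paclitaxel and the combination. These 3 comparisons share the control libraries of both lines.

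The levels behind these 2 genes were as follows. MRPL15 in H1975 had 38.0, 42.7 and 40.2 CPM in control, 40.8, 42.0 and 42.8 under almonertinib, 42.6, 54.5 and 61.0 under paclitaxel and 43.6, 42.3 and 44.0 under the combination, so no treated H1975 library lay below the lowest H1975 control. MRPL18 in H1975 had 57.7, 70.8 and 62.0 CPM in control and 73.9, 54.0 and 46.4 CPM under almonertinib. It had 55.8, 71.6 and 84.6 CPM under paclitaxel and 62.7, 62.7 and 69.9 CPM under the combination, and each treatment overlapped control. Without the libraries that stood apart, MRPL18 was called lower in H1975 under almonertinib (-0.33, edgeR adjusted p = 0.041). In the line difference MRPL2 went the other way from MRPL15 and MRPL18, with 1.40 for almonertinib and 1.42 for the combination. MRPS18C (-1.25) and MRPS33 (-0.88) differed for paclitaxel and MRPS17 (-0.93) for the combination, the last without a call when PC9 combination 2 was left out (adjusted p = 0.059). Both MRPL1 (1.31 and 1.26 for almonertinib and paclitaxel) and MRPS24 (-1.30 and -1.37) passed the test with all libraries. However, MRPL1 lost the almonertinib call without H1975 control 3, PC9 almonertinib 2, PC9 control 2 or PC9 control 3 (adjusted p = 0.056 to 0.10) and the paclitaxel call without H1975 control 3, H1975 paclitaxel 3, PC9 control 2, PC9 control 3 or any PC9 paclitaxel library (0.052 to 0.13). MRPS24 lost the almonertinib call without H1975 almonertinib 3, H1975 control 3, PC9 almonertinib 1 or PC9 control 3 (0.054 to 0.075) and the paclitaxel call without H1975 control 3, H1975 paclitaxel 3, PC9 control 3 or PC9 paclitaxel 2 (0.072 to 0.094).

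Untreated, the lines differed in the level of 49 of the 77 members, a smaller share than the 9189 of all 13380 genes tested. Of these 29 were lower in PC9 than in H1975 (33.8% of all genes tested) and 20 higher (34.9%), and the median difference was -0.21. Without the libraries that stood apart 42 were lower and 22 higher (38.0% and 37.6%), with a median of -0.28. MRPS17 stood at 24.3 ± 1.64 CPM in PC9 and 7.52 ± 0.50 in H1975 (SD, n = 3 each), a log2 difference of 1.69 (SE 0.18, adjusted p = 1.1e-08). MRPL48 was higher in PC9 (36.0 ± 2.78 against 15.9 ± 0.83 CPM, log2 difference 1.18), as was MRPL23 (57.4 ± 9.71 against 26.9 ± 4.61 CPM, 1.09), a protein at the exit of the peptide tunnel. MRPL50 was lower in PC9 (6.54 ± 0.88 against 16.5 ± 3.72 CPM, -1.33), and so were MRPS2 (211 ± 17.6 against 511 ± 112 CPM, -1.27) and MRPL39 (4.12 ± 0.17 against 9.87 ± 1.35 CPM, -1.26). None of these 6 pairs of groups overlap.

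**Figure D5:**
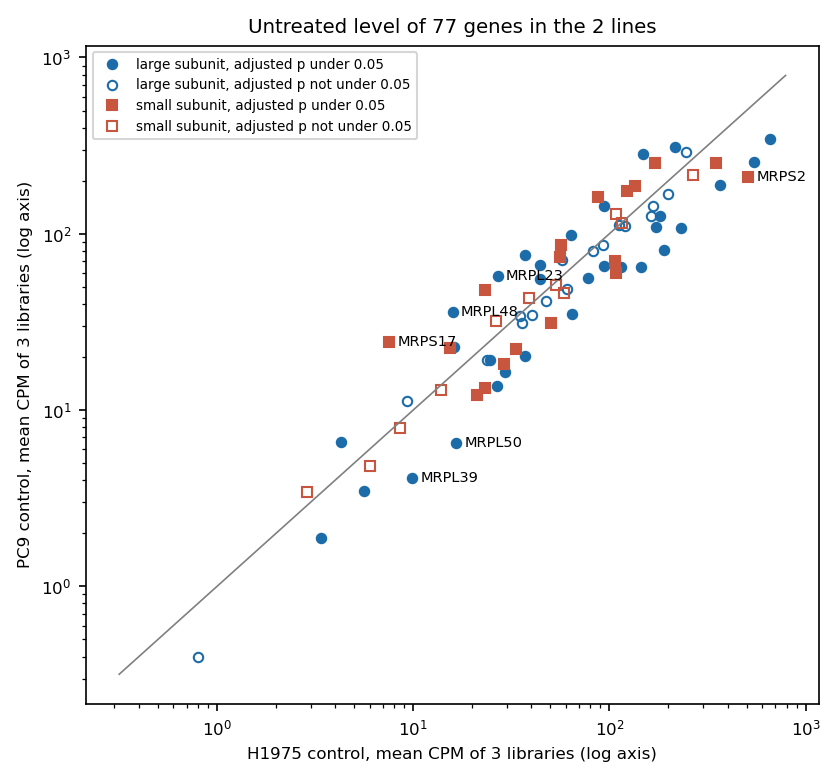
Mean CPM of each gene in the 3 H1975 control libraries (x axis, log scale) and the 3 PC9 control libraries (y axis, log scale), with circles for the large and squares for the small subunit, filled where the edgeR adjusted p was under 0.05; the line marks equal levels. Of the 49 filled points, 20 lie above the line and 29 below it, and the 3 with the largest log2 difference in each direction are named.

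Genes that work with the mitochondrial ribosome were followed as lists in PC9. Of all genes tested, 26.0% were lower and 24.7% higher under the combination, 28.0% and 27.0% under paclitaxel and 27.8% and 28.9% under almonertinib. Of 5 proteins of the particle with other symbols, 4 fell under the combination and 0 rose. DAP3, a GTP-binding small subunit protein, fell by 0.56 and GADD45GIP1, a large subunit protein, by 0.44. PTCD3, a repeat protein of the small subunit, rose under almonertinib (0.96) and under paclitaxel (0.91). Of 26 assembly and ribosomal RNA modification factors tested, 12 fell and 2 rose under the combination, with a median of -0.36. NGRN, which is needed for the large ribosomal RNA, fell by 1.00 and the helicase DDX28 by 0.82, while METTL15, a methyltransferase for the small ribosomal RNA, rose by 0.70.

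Of the translation factors, 5 of 18 fell and 2 rose under the combination (26.0% and 24.7% of all genes tested). Under paclitaxel 4 fell and 8 rose (28.0% and 27.0%). SLIRP, a partner of LRPPRC in keeping mitochondrial messengers stable, fell by 1.03 under the combination, and the recycling factor MRRF by 0.64, while the initiation factor MTIF3 rose by 0.82. LRPPRC rose by 1.18 under almonertinib and 1.29 under paclitaxel. Of 16 mitochondrial aminoacyl-tRNA synthetases, 8 fell and 1 rose under the combination, AARS2 by 0.91 and MARS2 by 1.53 downwards and RARS2 by 0.45 upwards. For transcription and maintenance of mitochondrial DNA, 4 of 10 fell and 0 rose, among them the helicase TWNK (-0.83).

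Of 8 regulators of mitochondrial biogenesis tested in PC9, 5 fell and 0 rose under the combination. MYC fell by 1.58 under the combination, 0.96 under almonertinib and 0.65 under paclitaxel, and PPRC1, a coactivator related to PGC-1, by 1.24, 1.26 and 0.81. GABPA, the DNA-binding subunit of GABP, rose under almonertinib (1.43) and under paclitaxel (1.14). The ETS letters stood in 39.0% of the windows of members that fell under the combination in PC9 and in 44.4% of those that did not, and the YY1 letters in 31.7% and 37.0%. The bearing of these regulators on the members was not tested.

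The messengers that the mitochondrial ribosome translates were followed as well. Under almonertinib in PC9, 11 of the 13 mitochondrially encoded protein genes fell and 0 rose (27.8% and 28.9% of all genes tested). The median log2 fold change was -1.17, and the falls were led by MT-ND4 (-1.51) and MT-CO1 (-1.43). Under paclitaxel 3 fell, where 28.0% of all genes tested did, and under the combination 2 fell, where 26.0% did. The medians were -0.21 and -0.25. The interaction was positive in 11 of the 13 (22.1% of all genes tested), with a median of 1.14. Their summed level was 14089 ± 1262 CPM in PC9 control, 6576 ± 1705 under almonertinib, 11512 ± 267 under paclitaxel and 11855 ± 1668 under the combination (SD, n = 3 each), so the group with the lowest level of these messengers was not the group with the lowest sum of ribosomal protein genes.

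Cytosolic ribosomal protein genes gave a further pattern in PC9. Of 81 tested, 50 fell and 1 rose under paclitaxel (28.0% and 27.0% of all genes tested), with a median of -0.40. Under almonertinib 20 fell and 7 rose (27.8% and 28.9%), with a median of -0.08. Under the combination 16 fell and 1 rose (26.0% and 24.7%), with a median of -0.16. For almonertinib and the combination the lower and the higher calls were both below the background share. For the mitochondrial members the combination gave the lowest median of the 3 treatments, and for the cytosolic genes paclitaxel did. The list also takes in symbols that end in L1, and the genes named from it for the combination carry that ending. RPL7L1 fell by 0.90 and RPL22L1 by 1.10, so these 2 do not stand for the whole list, whose median was -0.16. Whether the 2 families differ was not tested.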

How the data were processed

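Whole-number read counts per gene, not normalised, are what the authors deposited: 1 table of 24 libraries and 19702 Ensembl genes. Alignment and counting used HISAT2 2.2.1 and HTSeq on GRCh38, per the submitters' processing notes; version and annotation of HTSeq and the counted strand are not given in the sources used here. TRIzol RNA and a SMART-RNAseq kit were used, per the labels' protocols. All 24 columns were used.

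Symbols (19623 genes) came from a separate list of gene names, matched by Ensembl identifier. Exons, GC content and lengths (median over protein-coding transcripts) came from GENCODE v29. Each line's 12 libraries were fitted with edgeR 4.0.16 in R 4.3.3: filterByExpr, TMM factors and a quasi-likelihood test with 1 term per group. Differences between lines came from all 24 libraries (13380 genes). Two-sided p-values were Benjamini-Hochberg adjusted over all genes of each of 16 comparisons. The biological coefficient of variation was 0.111 in PC9 and 0.191 in H1975. Scripts were tested on simulated data.

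The members and all gene lists were chosen with earlier results of these data known. Named were the 5 rising and 5 falling called members with the largest change per subunit in each treatment against control, 3 each way in other comparisons, MRPL12, MRPS18A to C, MRPS30 and MRPS36, the 3 members highest and lowest per kilobase, and up to 2 genes each way per context list. Genes named for H1975 without the libraries that stood apart (MRPS18C, MRPL2, MRPL12, MRPS12, MRPL4, MRPL50 and MRPL46), and values of named genes in further comparisons, were chosen after their values were seen. Alternatives were RLE factors, no filter, a stricter filter (at least 1 CPM in 3 libraries, mean 5 CPM), DESeq2 1.42.0, a replicate block, 1 fit of all libraries, only the groups compared, each library left out, subunits by structure, and a length and GC trend removed (spline, 5 degrees of freedom).

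Nothing in the labels ties equal repeat numbers to a shared culture. Deviations of same-numbered libraries correlated above 0.1 in all 3 pairs only for PC9 almonertinib and control (0.119, 0.106 and 0.394) and H1975 combination and control (0.110, 0.169 and 0.345).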

Additional observations from a re-analysis of the deposited data

Results flagged for a closer look

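The effect of a drug differed between the lines for the members below, by an interaction test in edgeR over 24 libraries at an adjusted p under 0.05. Values are the PC9 log2 effect minus the H1975 one. Line and dose cannot be told apart, and 3 of the 4 libraries that stood apart are from H1975. Of all genes tested, 11.0% were lower and 5.53% higher for almonertinib, 7.21% and 9.9% for paclitaxel and 11.0% and 6.99% for the combination.

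For almonertinib the difference was -1.30 for MRPS24, -0.95 for MRPL15, -0.83 for MRPL18, -0.55 for MRPS27, -0.55 for MRPS30, 1.31 for MRPL1 and 1.40 for MRPL2.

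For paclitaxel, among large subunit genes, it was -0.85 for MRPL32, -0.79 for MRPL15, -0.78 for MRPL18, -0.76 for MRPL58, -0.76 for MRPL33, -0.71 for MRPL36, -0.69 for MRPL9, -0.68 for MRPL51, -0.54 for MRPL45 and 1.26 for MRPL1. Among small subunit genes it was -1.37 for MRPS24, -1.25 for MRPS18C, -0.88 for MRPS33, -0.86 for MRPS28 and -0.78 for MRPS15.

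For the combination it was -1.04 for MRPL15, -0.94 for MRPL18, -0.93 for MRPS17, -0.78 for MRPS30, -0.74 for MRPL32, -0.74 for MRPS25, -0.72 for MRPS33, -0.66 for MRPL16, -0.58 for MRPS27 and 1.42 for MRPL2.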

How the results depend on the processing

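Among the values of called named genes under the alternatives, 1416 kept direction and call, 176 lost the call and 5 reversed; of those not called, 2343 stayed so and 112 gained a call. The reversals all came with the length and GC trend removed: MRPL50 in PC9 almonertinib (-0.069), paclitaxel (-0.41) and interaction (0.0097), and MRPL42 (-0.044) and MRPS10 (-0.22) in PC9 paclitaxel. The cause of the other changes was not tested.

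The share of all genes called moved between fits too. In PC9 paclitaxel it went from 28.0% to 16.3% lower and from 27.0% to 21.5% higher with all 24 libraries in 1 fit. A changed count, here or with 1 library left out, is thus not by itself a change of the members. Counts of called members moved by over 1.5 times as follows. With all 24 libraries in 1 fit they were 24 in PC9 paclitaxel, 4 in PC9 combination against almonertinib, 17 against paclitaxel, 15 in the PC9 interaction, 1 in H1975 almonertinib, 3 in H1975 combination and 6 in H1975 combination against paclitaxel. With only the groups compared they were 4 in PC9 combination against almonertinib, 14 in H1975 combination and 5 in H1975 combination against paclitaxel. With the length and GC trend removed they were 1 in H1975 almonertinib, 6 in H1975 combination, and 14 and 26 for the line difference of almonertinib and paclitaxel. DESeq2 gave 2 in H1975 combination, 1 in H1975 combination against paclitaxel and 25 for the line difference of paclitaxel. The stricter filter gave 0 in H1975 combination and 4 for the line difference of almonertinib. Without the libraries that stood apart they were 36, 12 and 36 in H1975 almonertinib, paclitaxel and combination, 23 and 57 in H1975 combination against almonertinib and paclitaxel, 24 in the H1975 interaction, and 21, 46 and 27 for the line differences of almonertinib, paclitaxel and combination.

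With 1 library left out, the counts ran from 29 to 50, 36 to 46 and 42 to 46 in PC9 almonertinib, paclitaxel and combination, 8 to 35 and 20 to 24 in PC9 combination against almonertinib and paclitaxel, and 17 to 36 in the PC9 interaction. In H1975 they ran from 0 to 3, 0 to 0 and 0 to 2 for the treatments, 0 to 3 and 0 to 7 for the combination against almonertinib and paclitaxel, and 0 to 2 for the interaction. Line differences ran from 4 to 10, 6 to 32 and 5 to 13 for almonertinib, paclitaxel and combination, and 41 to 47 for controls. The paclitaxel line difference was 32 without H1975 paclitaxel 1, 6 without H1975 paclitaxel 3, 8 without H1975 control 3, PC9 control 3 or PC9 paclitaxel 2, and 9 without PC9 paclitaxel 3. That of the combination was 5 without PC9 combination 2 and 6 without PC9 control 1, and that of almonertinib 4 without PC9 control 3.

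The difference of the subunit medians (large minus small, log2) moved with the stricter filter to 0.020 in PC9 paclitaxel, 0.076 in PC9 combination, 0.070 for the line difference of almonertinib and -0.14 in controls. With the length and GC trend removed it was 0.085 in PC9 combination, -0.029 in PC9 combination against paclitaxel, -0.13 in the PC9 interaction, -0.066 in H1975 combination, -0.11 in H1975 combination against paclitaxel, 0.020 in the H1975 interaction, 0.085 and 0.14 for the line differences of almonertinib and paclitaxel and -0.38 in controls. With subunits by structure it was -0.15 in controls.

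With a replicate block 40, 58 and 49 members were called in PC9 almonertinib, paclitaxel and combination. Of these, 31, 50 and 49 were lower and 9, 8 and 0 higher. The share of all genes in that fit is not given here, so these counts cannot be set against it. The block took the call from none of the named genes. Counts are deep for most members, but MRPL38, MRPL1 and MRPS24 are low.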
